A study of Mus musculus with 4 samples.

Results

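Hair shaft and nail plate cells were 198 of the 93602 cells kept from 4 single-cell RNA libraries of mouse digits after amputation of the digit tip. A kept barcode had 200 to 5500 genes, at most 30000 UMIs (unique molecular identifiers, each standing for 1 captured transcript) and at most 10% of its UMIs from mitochondrial genes. A member had at least 1 UMI in 2 or more of 6 hair and nail keratins, Krt35, Krt31, Krt33a, Krt33b, Krt36 and Krt86. The UMI sum of these 6 keratins was at least that of 6 inner root sheath genes, Krt71, Krt25, Krt27, Krt28, Krt73 and Tchh, and the endothelial gene Pecam1 and the leukocyte gene Ptprc were at 0 UMIs. UMIs of the 6 keratins thus chose the cells, so their levels are a description and support nothing.

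The study asked how lymphatic vessels bear on bone regrowth after amputation of the terminal phalanx (P3), and profiled digits by droplet sequencing from the 3' end of transcripts. All mice were female, C57BL/6 in the labels and C57BL/6J in the study's methods, aged 6 to 8 weeks, and the hindlimb digits of 10 mice were pooled in each library. Per the methods, digits were cut for dissociation within the phalanx before P3. The range of digits taken is wider than the digits named for the amputation. The libraries can therefore hold skin away from a regenerating tip. One experiment compared chow holding SAR131675, an inhibitor of the lymphatic growth factor receptor VEGFR3, at 30 ppm with matched control chow, with 8 days of diet in the labels. The labels give no day after amputation, and the study's text and a figure legend name different days for this pair, so the day is not stated here. The other compared lymph node removal (LNR) on a limb with sham, which the study places on the opposite limb, possibly of the same mice, and the sample label calls no treatment. Each group is 1 library, and the labels give every library another batch number. The effects of batch and of treatment therefore cannot be told apart, and there was no test across samples. Cells of a library are not replicates, and a pool of digits shows no spread between mice.

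The SAR131675 library held 92 members among 29076 kept cells, the control diet library 35 among 24030, the LNR library 32 among 19827 and the sham library 39 among 20669. Members were deeper than the other cells, with median UMIs of 14516 to 17349.5 by library against 5725 to 11316 over all kept cells. Kept cell barcodes were shared by 210 cells of the SAR131675 and control diet libraries and by 101 cells of the LNR and sham libraries, and no other pair of libraries shared more than 2. No member barcode was shared. Levels are UMIs of a gene summed over the members of a library and scaled to 1000000 summed UMIs (CPM). Intervals in parentheses are exact 95% intervals, and they cover counting error only.

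The hair shaft and the nail plate are dead, hard tissues built by keratinocytes that rise from a matrix. As these cells differentiate they switch from the soft keratins of epidermis to hard keratins, which pair an acidic type I chain with a basic type II chain. Cysteine-rich and glycine- and tyrosine-rich keratin-associated proteins (Krtap genes) then fill the space between keratin filaments. The matrix relies on Wnt signalling through Lef1 and on Hoxc13, which acts on hard keratin genes directly. Krt35 is a type I keratin of the early hair cortex and the matrix, Krt31, Krt33a and Krt33b are type I keratins of the cortex above it, Krt36 is a type I keratin of hair and nail, and Krt86 is a type II keratin of the cortex.

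The type I hard keratins lie in a cluster on chromosome 11. Of 9 listed, 7 are in the promoter table, and the starts of 5 that the members carried are shown, chosen with the matches known. Krt35 is not shown. They are given because Lef1 and Hoxc13 were among the transcription factors with the most UMIs in the members. Sequences are from the RefSeq promoter table for GRCm38.p6, an older build than the GRCm39 that the labels name, so the coordinates hold for GRCm38.p6 only. Each is the 250 bases before the gene's start on the minus strand, written 5′ to 3′. Capitals mark CTTTGA, the core of the sequence that LEF and TCF factors bind, and TATAAA, a core promoter element. Both were searched on both strands and do not overlap each other.
Krt31, chr11:100050552-100050801: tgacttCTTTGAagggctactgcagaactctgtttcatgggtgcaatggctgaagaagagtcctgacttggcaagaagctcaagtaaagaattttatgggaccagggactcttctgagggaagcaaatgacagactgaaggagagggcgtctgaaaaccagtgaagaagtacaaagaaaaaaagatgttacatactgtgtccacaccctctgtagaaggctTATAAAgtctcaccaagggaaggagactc
Krt33b, chr11:100029869-100030118: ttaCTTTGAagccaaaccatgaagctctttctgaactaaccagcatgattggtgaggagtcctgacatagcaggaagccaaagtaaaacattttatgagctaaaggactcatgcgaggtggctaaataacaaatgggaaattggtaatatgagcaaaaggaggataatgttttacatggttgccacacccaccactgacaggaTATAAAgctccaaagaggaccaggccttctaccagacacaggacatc
Krt34, chr11:100041555-100041804: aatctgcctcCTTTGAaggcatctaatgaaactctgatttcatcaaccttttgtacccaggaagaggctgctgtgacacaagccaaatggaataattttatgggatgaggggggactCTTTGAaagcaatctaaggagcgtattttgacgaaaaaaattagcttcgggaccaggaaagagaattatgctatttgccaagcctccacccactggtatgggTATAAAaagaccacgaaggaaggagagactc
Krt32, chr11:100088270-100088519: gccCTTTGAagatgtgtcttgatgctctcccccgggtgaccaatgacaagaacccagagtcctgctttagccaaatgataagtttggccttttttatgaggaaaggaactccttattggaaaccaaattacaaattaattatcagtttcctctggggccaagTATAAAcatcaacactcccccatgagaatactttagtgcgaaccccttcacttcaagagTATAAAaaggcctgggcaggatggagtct
Krt36, chr11:100105627-100105876: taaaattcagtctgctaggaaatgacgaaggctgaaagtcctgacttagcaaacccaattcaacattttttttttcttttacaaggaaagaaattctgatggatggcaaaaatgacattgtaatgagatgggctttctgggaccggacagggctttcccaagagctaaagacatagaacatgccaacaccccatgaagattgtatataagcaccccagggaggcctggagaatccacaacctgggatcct
TATAAA began 29 bases before the start of Krt31, 31 before that of Krt34, 47 before that of Krt33b, and 29 and 88 before that of Krt32. CTTTGA began 240 to 247 bases before the start of these 4 genes, with another copy 133 bases before the start of Krt34. Neither exact run of letters was found in the 250 bases of Krt36, and near matches were not searched in any of the windows. Of the 7 type I genes 5 held CTTTGA, 5 held TATAAA and 4, all of them shown, held both. Of 15 hair and nail keratin genes in the lists, 9 are in the table, of which 5 held CTTTGA, 6 held TATAAA and 4 held both. Of 57 Krtap genes, 51 are in the table, of which 12 held CTTTGA, 41 held TATAAA and 9 held both. Over all 32851 promoters of the table, 13.8% held CTTTGA, 12.4% held TATAAA and 2.13% held both. A match of letters is a description of these windows and was not tested for binding.

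Most members were recognised by Krt35 together with Krt36. Krt35 had a UMI in 174 of the 198 members and 19270 UMIs in all, Krt36 in 169 members with 4024 UMIs, and 156 members had both. Krt31 had 2236 UMIs in 65 members, Krt33a 925 in 39 and Krt33b 551 in 26. Krt33a and Krt33b are near-identical copies, and the division of reads between them was not tested. Both were held by 9 members. Others held 1 without the other, such as a SAR131675 cell with 93 UMIs of Krt33a and a sham cell with 114 of Krt33b. Krt86, one of the markers that name these cells, had 25 UMIs over 16 members and never more than 5 in a cell. The label thus rested on the type I keratins, and its type II marker was close to 0 in every library. Exactly 2 of the 6 keratins were found in 141 members, 3 in 26, 4 in 26 and 5 in 5, and no member held all 6.

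Krt35 was at 7711 CPM in SAR131675 members, 6826 in control diet, 2651 in LNR and 4704 in sham. Krt36 was at 434, 795, 4778 and 825 CPM in the same order. In LNR members the sum of Krt36, 2501 UMIs, exceeded the 1388 of Krt35, but without 1 cell it was 1020 UMIs, below Krt35, and the median member held 10 UMIs of Krt35 and 4 of Krt36. Krt31 was at 556, 313, 1137 and 1075 CPM, Krt33a at 248, 286, 729.7 and 45.9, and Krt33b at 141, 59.4, 264 and 284. The sum of the 6 keratins per member ran from 2 UMIs in every library to 577 in SAR131675, 385 in control diet, 1482 in LNR and 463 in sham, with medians of 122, 91, 82.5 and 76. The LNR cell at the top held 1481 UMIs of Krt36 and 1 of Krt31, and it alone gave 29.6% of the LNR library's UMIs of the 6 keratins in members.

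**Figure D1:**
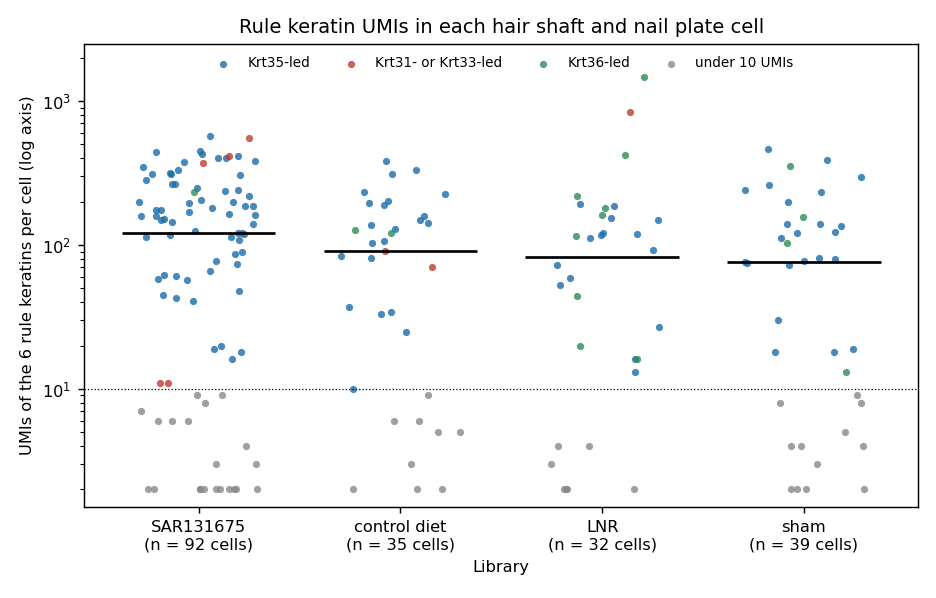
UMIs of the 6 rule keratins in each member, on a log axis, by library; each point is a cell, coloured by the rule keratin with most UMIs, bars are medians and the dotted line marks 10 UMIs. In all 4 libraries the cells spread from 2 UMIs to at least 385, and Krt36-led cells reach the top in the LNR library with 1482 UMIs.

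At the inner edge 22 members had 2 UMIs of the keratins and 49 had under 10, leaving 149 with 10 or more. Just outside it, 2032 kept cells had UMIs of 1 of the keratins, 300 of them with at least 10 UMIs, of which 261 held Krt35 and 39 held Krt36. Another 25 cells were dropped for Pecam1 or Ptprc and 23 for the inner root sheath genes, 21 of these in the sham library. The members held 28.0% to 54.3% of the UMIs of the 6 keratins in kept cells of a library, with the lowest share in control diet and the highest in SAR131675. Leukocytes and endothelial cells, which should lack hard keratins, gave the background. Among Ptprc-positive cells, 2 or more of the keratins were found in 1 of 1722 in SAR131675, 0 of 1204 in control diet (up to 0.306%), 2 of 1580 in LNR and 1 of 1429 in sham, at median depths of 4050.0 to 7849.5 UMIs. Among Pecam1-positive cells it was 8 of 1997, 3 of 1595, 0 of 1123 (up to 0.328%) and 10 of 1246, or 0.401%, 0.188%, 0% and 0.803%. The Pecam1 shares in SAR131675, control diet and sham were as high as the 0.364%, 0.164% and 0.283% of cells with neither gene, so detection of 2 keratins alone does not set a member with few UMIs apart from background. Thinned to 1500 UMIs per cell, the shares were at most 0.154% in Pecam1-positive cells and 0.0608% to 0.139% in cells with neither gene.

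Members fell into cells led by Krt35, by Krt31 or a Krt33 gene, and by Krt36, named by the rule keratin with most UMIs where these came to 10 or more. Krt35-led cells were 125, with 65 in SAR131675, 22 in control diet, 15 in LNR and 23 in sham. Krt31- or Krt33-led cells were 8, with 5, 2, 1 and 0. Krt36-led cells were 16, with 1, 2, 9 and 4. The remaining 49 members, under 10 UMIs, were 21, 9, 7 and 12. Krt36-led cells were thus 28.1% of LNR members against 1.09% to 10.3% in the other libraries, and Krt36-led cells held 53.1% of the keratin UMIs of LNR members against 1.66% to 15.3% elsewhere. These shares hold for the rule as given. Just outside it, cells with 10 or more UMIs of Krt36 as their only rule keratin were 7 in SAR131675, 18 in control diet, 7 in LNR and 7 in sham. The genes described next were not used to choose or to sort the cells. The groups draw on different libraries, with most Krt35-led cells from the diet experiment and 9 and 4 of the 16 Krt36-led cells from LNR and sham, so levels of the main genes are also given within libraries.

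Krt35-led cells carried the transcription factors of the hair matrix. Lef1, the nuclear partner of beta-catenin, had a UMI in 115 of 125 of these cells, with a median of 17 UMIs and a highest of 71, and in 3 of 16 Krt36-led cells, with a highest of 4. In Krt35-led cells Lef1 was at 1524 CPM in SAR131675, 1487 in control diet, 176 in LNR and 249 in sham, and in Krt36-led cells at 0, 49.8, 28.8 and 0 CPM. Msx2, a homeobox factor of the matrix, was at 302, 310.2, 144 and 182 CPM against 0, 49.8, 17.3 and 0 CPM. Both were thus lower in the Krt36-led cells of each library, of which SAR131675 has 1 and control diet 2. Jag1, a Notch ligand, was at 498, 513, 184 and 142 CPM against 376, 249, 11.5 and 53.6 CPM. Hoxc13 did not keep 1 direction, at 1370.1, 1299, 584 and 648 CPM against 2350.1, 996, 421 and 214 CPM, and had a UMI in 122 of 125 and 15 of 16 cells. Krt32 and Krt82, a type I and a type II keratin of the hair cuticle, were at 355 and 229 CPM in Krt35-led cells and at 0 UMIs in Krt36-led cells. They were carried by few cells, with a UMI of Krt32 in 39 and of Krt82 in 15 of the 125, and 50.4% of the Krt32 UMIs and 36.3% of the Krt82 UMIs came from 1 cell each.

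Genes that stood highest in Krt35-led cells against the other leading-keratin groups included signalling genes, with most of their UMIs in the diet libraries. The Kit ligand gene Kitl, which sustains melanocytes, had 164 UMIs in Krt35-led cells and 0 in the Krt31-, Krt33- and Krt36-led cells. Sox5, a transcription factor, had 196 UMIs, Cldn10, a tight junction gene, 178, Ednra, an endothelin receptor, 128 and Mycn, a growth regulator, 126, all against 0. Eda, the ligand ectodysplasin of hair and nail development, had 140 UMIs in 3 libraries against 0. By library Kitl was at 108 CPM in SAR131675, 52.2 in control diet, 8.00 in LNR and 40.2 in sham, and Sox5 had 135, 55, 3 and 3 UMIs. Cldn10 was at 114, 75.4, 48.0 and 13.4 CPM, and Eda had 101, 38, 0 and 1 UMIs. The cells led by the other keratins were 8 and 16, the latter mostly from LNR and sham, so low levels in them could not be detected. A single UMI of Krt32 came to 9.60 CPM in the 8 Krt31- or Krt33-led cells. In the Krt36-led cells of SAR131675 and control diet, 3 and 2 UMIs of the cornified envelope gene Cnfn came to 282 and 99.6 CPM. The 0 UMIs in these few cells therefore say little about levels of the size seen in Krt35-led cells. Krtap26-1 and the haemoglobin genes, which rank in the same set, had at least 91.3% of their UMIs in 1 cell each.

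Krt31- or Krt33-led cells carried the late products of the cortex. Krt87, Krt83 and Krt81, type II keratins of the cortex, were at 5119, 3448 and 2075 CPM in these 8 cells, against 171, 38.9 and 2.32 CPM in Krt35-led cells. Krtap8-1, a glycine- and tyrosine-rich protein, was at 22436 CPM against 61.2, Krtap11-1, a cysteine-rich protein, at 7348 against 474, and Krtap7-1 at 7223 against 62.6. Within SAR131675, control diet and LNR, Krt87 was at 3471, 11416 and 9574 CPM in these cells against 139.6, 116 and 176 CPM in Krt35-led cells, and Krtap11-1 at 5135, 17613 and 13096 CPM against 532, 244 and 216 CPM. The whole Krtap list was at 45881 CPM, and at 22791 CPM without the 2 cells with most of it, against 1005 and 624 CPM in Krt35-led cells. In Krt36-led cells it was at 10099.8 CPM, but 2 sham cells held 1748 and 709 of the 2628 UMIs and without them it was at 726 CPM. In both of these cells Krt31 and Krt33b together had more UMIs than Krt36. Their keratin profiles were alike, at 16500 and 8065 UMIs in all, and whether they are 1 cell under 2 barcodes was not tested. In Krt31- or Krt33-led cells Hoxc13 was at 864 CPM, and at 1001 in SAR131675, 1957 in control diet and 290.1 in LNR. Lef1 was at 780.0 CPM in the SAR131675 cells, at 0 UMIs in both control diet cells and at 1 UMI in the LNR cell, and 33 of its 61 UMIs were in 1 cell. A single LNR cell held 61.3% of the Krtap8-1 UMIs of this group, 63.8% of its Krtap7-1 UMIs and 77.4% of its Krt83 UMIs. Without it these were at 11302, 3401 and 1013 CPM, and Krt81 was at 1121 CPM without its top cell, from SAR131675. No sham cell belonged to this group.

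Krt36-led cells were highest in Krt84 and Spink12. Krt84, a type II hard keratin, was at 5465 CPM with a UMI in 15 of 16 cells, against 49.6 CPM and 25 of 125 in Krt35-led cells. By library it was at 25757, 1195, 4566 and 5927 CPM in Krt36-led cells, against at most 87.0 CPM in the Krt35-led cells of any library. Spink12, a protease inhibitor, was at 18236 CPM with a UMI in 11 of 16, against 407 CPM and 44 of 125. An LNR cell held 2929 of the 4745 Spink12 UMIs, and without it the level was 7783 CPM. In control diet, with 2 Krt36-led cells, Spink12 was lower in them, at 249 against 487 CPM. The keratinocyte gene Krtdap was at 2350.1, 3934, 6428 and 8034 CPM by library in Krt36-led cells, against 182, 116, 1859 and 801 CPM in Krt35-led cells. Krt14 was closer within LNR and sham, at 1977 and 2071 CPM against 1595 and 1361 CPM, and its level in all Krt36-led cells was 1799 CPM with, and 1049 CPM without, 1 LNR cell. Sprr2b and Cnfn, genes of the cornified envelope, were at 2936 and 607 CPM, or 1777 and 400.3 CPM without the top cell, against 4.86 and 7.96 CPM in the other leading-keratin cells. In Krt36-led cells Sprr2b was found in 2 LNR and 3 sham cells, and Cnfn in 1, 1, 4 and 3 cells of SAR131675, control diet, LNR and sham. Krtap3-1 and Krtap3-3 were at 1937 and 1706 CPM, but 68.5% and 69.4% of their UMIs were in 1 sham cell, without which they were at 652 and 558 CPM. Krt42, which with Spink12 marks nail-type keratinocytes in the lists, had 0 to 3 UMIs per library over all members.

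Members with under 10 UMIs of the keratins had higher levels of epidermal genes and of the fibroblast gene Dcn than Krt35-led cells, and 3 of them were rich in Krtap genes. Their suprabasal list stood at 21017 CPM and their basal list at 7860.2 CPM, against 1695 and 1408 CPM in Krt35-led cells. Krt10, the main keratin of differentiating epidermis, was at 10253, 5230.3, 9874 and 2988 CPM by library, against 298, 179.7, 1635 and 806 CPM in Krt35-led cells. Dcn was at 398, 4140.2, 119 and 2396 CPM against 71.5, 58.0, 80.0 and 672 CPM. Hoxc13 was at 98.0 CPM with a UMI in 17 of 49 cells. Lef1 was at 211 CPM with a UMI in 12, and at 86.0 CPM without the SAR131675 cell that held 76 of its 127 UMIs. The Krtap list was at 5066 CPM, above the 1005 CPM of Krt35-led cells, with 3051 UMIs of which 2774 were in 3 SAR131675 cells. These had 1229 of 3102, 1134 of 2625 and 411 of 1292 UMIs in Krtap genes, and were 3 of the 7 members with 10% or more. Without them the list was at 465 CPM, and by library it was at 360.4, 23.2, 1399 and 441 CPM. These cells stayed in the sums over whole libraries, where they were 21.9% to 30.8% of the members.

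**Figure D2:**
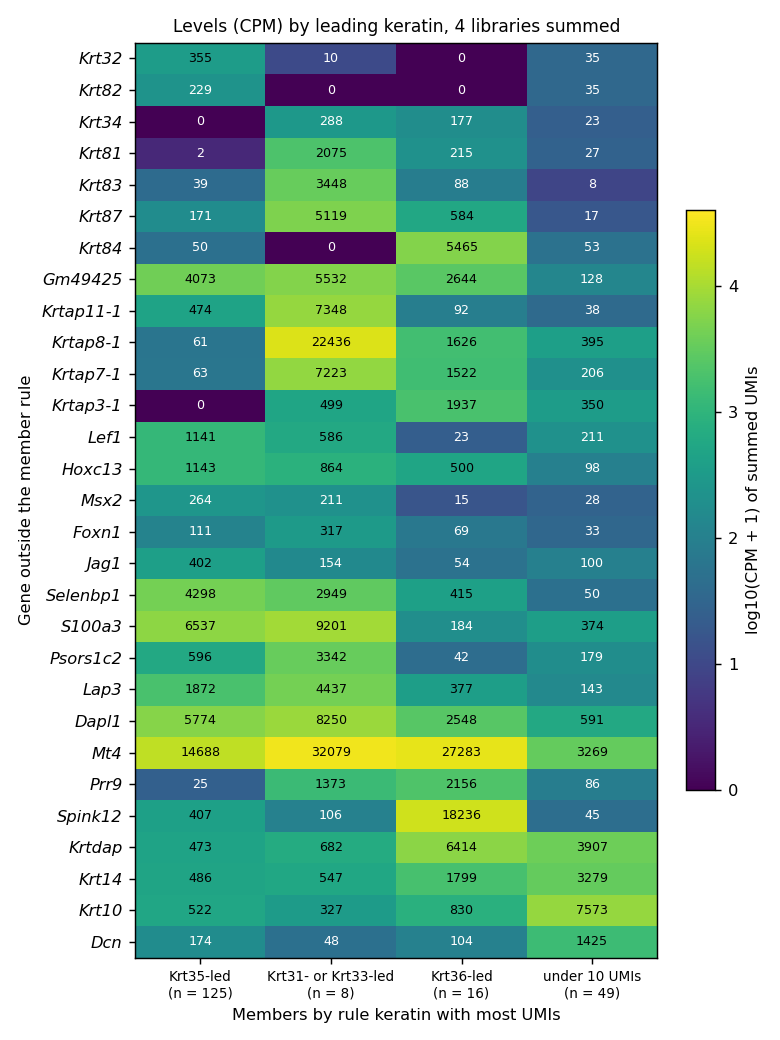
Levels in CPM of genes outside the member rule (rows) in members grouped by leading rule keratin (columns, 4 libraries summed), coloured as log10(CPM + 1). Lef1 is at 1141 in Krt35-led and 23.1 in Krt36-led cells, with Krt35-led cells at 176 in LNR and 249 in sham, which hold 9 and 4 of the 16 Krt36-led cells; Krt84 and Spink12 peak in Krt36-led cells, Krtap8-1 and the type II keratins Krt81, Krt83 and Krt87 peak in Krt31- or Krt33-led cells, and Krt10 and Dcn peak in cells with under 10 UMIs.

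Cells just outside the rule also carried Hoxc13 and Lef1. In the 300 kept cells with 10 or more UMIs of a single rule keratin, Hoxc13 was at 1189 CPM in SAR131675, 845 in control diet, 478 in LNR and 481 in sham, beside 1128, 1061, 432 and 473 CPM in the members. Lef1 was at 1472, 875, 206 and 186 CPM, beside 1274, 1140.2, 101 and 170.1 CPM. Krt84 was higher outside the rule, at 294, 4305, 4103 and 856 CPM against 220.1, 128, 1555 and 588 CPM in the members. Krtap11-1 was lower outside it, at 1.44 to 6.25 CPM against 308 to 749 CPM.

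Levels by role were next set against 49017 other keratinocytes (at least 20 UMIs of Krt5, Krt14, Krt1 and Krt10) and 2468 inner root sheath cells (at least 2 of the 6 inner root sheath genes and more of their UMIs than of the rule keratins) within each library. The rule used these very cells, and genes entered through their UMIs in members, so this and the counts of list genes are a description. Log2 ratios have 0.5 UMI added to each sum. Among 4580 genes with at least 100 UMIs in members, 223 were at least 2-fold higher than in other keratinocytes in each of the 4 libraries (4.87%) and 70 at least 2-fold lower (1.53%). Against inner root sheath cells these were 150 (3.28%) and 30 (0.655%).

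Hard keratins outside the rule, as a sum, were higher in the members than in other keratinocytes and inner root sheath cells of each library. Nail-type cells, with UMIs of both Krt42 and Spink12, came closer in the diet libraries. The 9 listed genes summed in nail-type cells to 298 CPM in SAR131675, 504 in control diet, 4.37 in LNR and 2.57 in sham. In members they summed to 1131, 927, 3211 and 1583 CPM. Krt87 was at 284 CPM in SAR131675, 180.5 in control diet, 590.3 in LNR and 391 in sham members, against 0.0527 to 0.138 CPM in other keratinocytes. Krt84 was at 220.1, 128, 1555 and 588 CPM against 1.22, 17.2, 16.1 and 3.40 CPM. Krt82 was at 148, 249, 145 and 162 CPM against at most 0.156 CPM. All 6 of the 6 other hair and nail keratins with 100 UMIs, of 9 listed, were at least 2-fold higher in each library, beside the 4.87% of all genes, and their summed level was higher by 5.55 to 8.03 on the log2 scale. Krt34, Krt39 and Krt40 had too few UMIs, with 90, 15 and 0 over all members. Krt85 and Krt74 were not analysed here. The predicted gene Gm49425, which lies between Krt83 and Krt84 in the keratin cluster of chromosome 15, was found in the same cells. It was at 3666, 3610.0, 2355 and 2624 CPM in members against 1.25 to 2.80 CPM in other keratinocytes and 13.8 to 20.8 CPM in inner root sheath cells, and 124 of 125 Krt35-led cells had a UMI.

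Krtap genes were found in a larger share of members than of other cells, and most of their UMIs were in a few members. At least 1 Krtap UMI was found in 124 of 198 members, which is 68.5% in SAR131675, 45.7% in control diet, 56.2% in LNR and 69.2% in sham, beside 4.34% to 6.50% of other keratinocytes and 1.58% to 3.71% of Ptprc-positive cells. Median depths were 14516 to 17349.5 UMIs in members, 8643 to 12968 in other keratinocytes and 4050.0 to 7849.5 in Ptprc-positive cells. Thinned to 1500 UMIs, the shares were 25.0% to 46.2%, 1.31% to 1.73% and 0.349% to 1.79%. In all, 14 members had 1% or more of their UMIs in Krtap genes and 7 had 10% or more, up to 43.2%. Over the libraries the 57 Krtap genes were at 4146 CPM in SAR131675, 986 in control diet, 5448 in LNR and 4873 in sham members, against 15.4 to 36.0 CPM in other keratinocytes. The 5 members with most Krtap UMIs held 67.6%, 89.5%, 97.5% and 93.9% of them. Of 19 Krtap genes with 100 UMIs, 16 were at least 2-fold higher in each library, and 40 of the 57 had any UMI. Krtap8-1, Krtap11-1, Krtap7-1, Krtap22-2 and Krtap3-1 had most UMIs. Krtap11-1 was the most widely found, with UMIs in 40 of 92, 9 of 35, 14 of 32 and 11 of 39 members, while Krtap22-2 was found in 4, 1, 5 and 4.

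Transcription factors of the hair matrix were higher than in other keratinocytes and, as a sum, closer to the inner root sheath. Of 11 factors with 100 UMIs, of 14 listed, 6 were at least 2-fold higher than in other keratinocytes in each library and 1 at least 2-fold lower, and their sum was higher by 1.54 to 2.09 on the log2 scale. Hoxc13 was higher than in other keratinocytes by 4.13 to 4.45 on the log2 scale and than in inner root sheath cells by 2.89 to 4.01. Lef1 was higher by 4.87 to 6.64 and 0.45 to 2.76. Foxn1, the factor that the nude mouse lacks, was at 103, 123, 97.4 and 73.1 CPM in members, higher by 2.51 to 3.70 and 1.85 to 2.74. Msx2 was higher than in other keratinocytes by 4.57 to 5.90 and than in inner root sheath cells by 1.68 to 2.20 in 3 libraries and 0.067 in LNR. Cux1, a factor of inner root sheath fate, was at 209, 293, 80.2 and 78.2 CPM, lower than in inner root sheath cells by a log2 ratio of -2.33 to -1.49. Bcl11b was the factor at least 2-fold lower than in other keratinocytes, at 51.3, 33.0, 28.7 and 25.5 CPM against 344, 282, 109 and 110.3 CPM. The sum of the list was within -0.033 to 0.80 of the inner root sheath.

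Lef1 differed between the experiments, as did the whole list of matrix factors. Lef1 was at 1274 CPM in SAR131675 and 1140.2 in control diet members but at 101 in LNR and 170.1 in sham members. In other keratinocytes Lef1 was at 15.0 and 11.4 CPM against 3.48 and 3.88 CPM, so both cell classes had more of it in the diet experiment. The 14 listed factors summed to 3688 and 3498 against 1129 and 1235 CPM in members. In all kept cells they summed to 1004 and 859 against 417 and 418 CPM. Selenbp1, a selenium-binding protein of the shaft list, went the same way in members, at 4422 and 4138 against 726 and 966 CPM. The libraries of the experiments differ in depth and in the version of the counting software, and the part of these in the levels was not tested.

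Signalling genes were mixed. Of 8 genes with 100 UMIs, of 19 listed, 3 were at least 2-fold higher than in other keratinocytes in each library, with the sum of the list higher by 0.48 to 0.69 on the log2 scale. These were Jag1, at 412, 438, 101 and 109 CPM and a difference of 1.27 to 2.41, Notch1, the receptor for Jag1, with 1.34 to 1.62, and Bmp4, a BMP ligand, with 1.72 to 3.05. Wnt10b, a Wnt ligand of the hair matrix, was at 31.4, 26.4, 9.55 and 13.6 CPM against 1.36 to 1.93 CPM, on 74 UMIs in all. Shh had 0 UMIs in the members, against 9.76 to 18.0 CPM in inner root sheath cells, and Edar, the ectodysplasin receptor, had 1.

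Structural genes of the shaft were at 12659.9, 14160.3, 9169 and 11099 CPM summed over 21 genes. Of 12 with 100 UMIs, 8 were at least 2-fold higher than in other keratinocytes in each library and none lower. S100a3, a calcium-binding protein of the hair cuticle, was at 3925, 5661, 4936 and 6908 CPM against 13.1 to 20.5 CPM. It had a UMI in 64 of 92, 20 of 35, 15 of 32 and 26 of 39 members, but most of its UMIs were in few cells, with medians of 3, 1, 0 and 2 UMIs per member and highest values of 3540, 1484, 1797 and 1337. Dsg4, the desmosomal cadherin of the hair shaft, was at 341, 489, 38.2 and 40.8 CPM and higher by 7.69 to 10.24 on the log2 scale. Psors1c2 was at 766, 275, 565 and 235 CPM and higher by 4.40 to 7.65, and Vsig8, a surface protein of the shaft, was higher by 7.19 to 8.64. Tchhl1 had 0 UMIs.

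Among the 15 genes outside the rule whose lowest ratio over the 4 libraries was largest were also genes that no list held. Calhm4, a channel gene, was at 87.9, 112, 64.9 and 64.6 CPM in members against at most 0.0311 CPM in other keratinocytes, and the lowest of its 4 log2 ratios was 11.37. Tagln3, a member of the transgelin family, was at 246, 225, 97.4 and 64.6 CPM and higher by 8.85 to 9.99. Gprc5d, a receptor gene that is also among the 15 but belongs to the shaft structural list, was at 23.1, 19.8, 229 and 13.6 CPM, with UMIs in 7, 2, 2 and 3 members. Outside these 15, Lap3, a peptidase gene, and Dapl1, an early differentiation gene of epithelia, were at 1812 and 4419.8 CPM in SAR131675 and at 850.1 and 4703 CPM in LNR members. Mt4, the metallothionein of stratified epithelia, was at 10620.4, 9076, 24018 and 18453 CPM against 2263 to 3415 CPM in other keratinocytes, and had a UMI in 88 of 92, 34 of 35, 31 of 32 and 38 of 39 members.

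**Figure D3:**
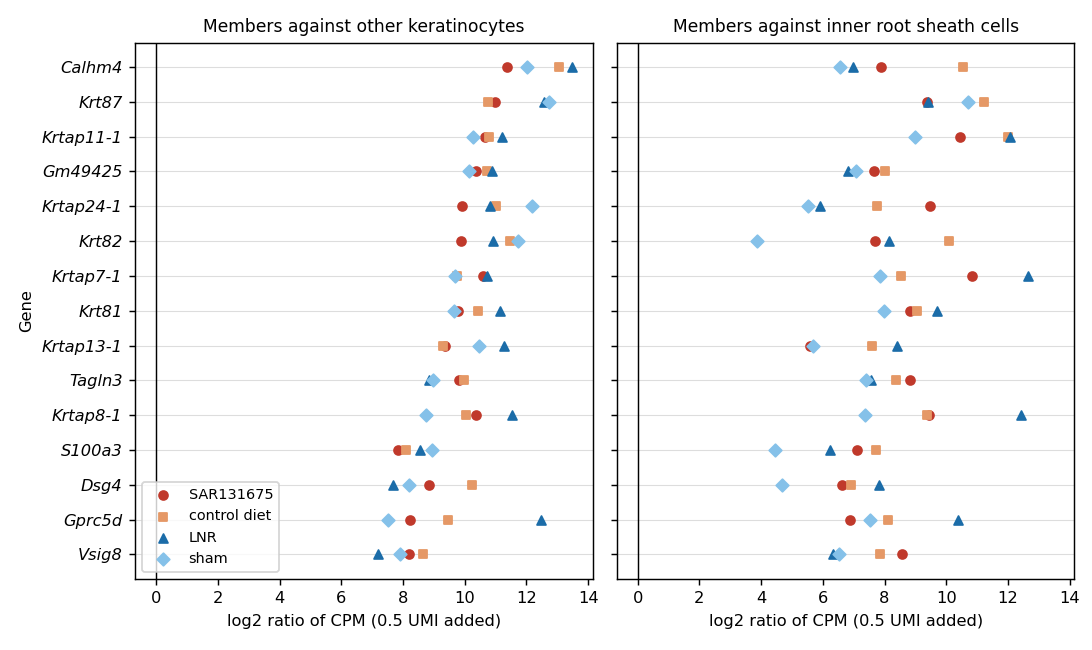
Log2 ratio of CPM between members and other keratinocytes (left) and inner root sheath cells (right) for the 15 genes outside the rule with the largest lowest ratio, 1 point per library. Every point lies above 0; where the compared cells hold 0 UMIs, as for Calhm4 and Krtap24-1 in the LNR library, its place depends on the 0.5 UMI added and is no bound.

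Epidermal genes were lower than in other keratinocytes, a direction set by how those were chosen, since Krt5, Krt14, Krt1 and Krt10 are in the basal and suprabasal lists. Of 7 basal genes with 100 UMIs, 6 were at least 2-fold lower than in other keratinocytes in each library, and the list was at 2208, 1629, 4063 and 4279 CPM against 9959 to 10702 CPM. Of 6 suprabasal genes, 4 were at least 2-fold lower, with the list at 5577, 3154, 9622 and 6915 CPM against 23809.7 to 34212 CPM. Against inner root sheath cells, none of these basal or suprabasal genes was at least 2-fold lower in each library. The log2 ratios of the sums there were -1.50, -2.14, 0.077 and -0.40 for basal genes and -1.18, -2.61, 2.13 and -1.18 for suprabasal genes, in the order SAR131675, control diet, LNR and sham. Cell cycle genes were at 823, 464, 1226 and 1429 CPM, lower than in other keratinocytes by a log2 ratio of -1.01 to -0.25 and than in inner root sheath cells by -1.76 to -0.60. Cysteine and redox genes stood at 1374 to 1563 CPM and within -0.10 to 0.019 of other keratinocytes.

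Markers of other cell types were present unevenly. At least 2 fibroblast, immune, endothelial, mural or melanocyte markers had a UMI in 44 of 92 SAR131675 members, 7 of 35 control diet, 10 of 32 LNR and 22 of 39 sham members. The 6 fibroblast genes summed to 198, 1219, 113 and 2157 CPM, with 58.7% of the control diet UMIs in 1 cell. The 6 immune genes summed to 7.06, 6.60, 26.7 and 68.0 CPM with 4, 4, 3 and 1 of them at 0, the 5 endothelial genes to 1.91 to 18.7 CPM, the 5 melanocyte genes to 1.91 to 13.2 CPM and the 2 mural genes to 4.40 to 117 CPM. Ptprc and Pecam1 were at 0 by the rule. Doublets were left in, and the part of other cells' RNA in the levels was not tested.

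For SAR131675 chow against control chow, the matrix factors and Gm49425 lay close together in the members, and the Krtap genes were higher in the SAR131675 library. Lef1 differed by a log2 ratio of 0.16 (0.02 to 0.30), Hoxc13 by 0.089 (-0.058 to 0.24), Selenbp1 by 0.10 (0.022 to 0.17) and Gm49425 by 0.022 (-0.057 to 0.10). S100a3 was lower, with -0.53 (-0.60 to -0.46). Of 3578 genes with 100 UMIs over both libraries, 82 were at least 2-fold higher (2.29%) and 56 at least 2-fold lower (1.57%), or 3.86% either way, and the median log2 ratio was -0.035. Of 10 matrix factors 0 passed 2-fold either way, with the list at 0.076 (-0.0039 to 0.16). Of 6 other hair and nail keratins 1, Krt81, was at least 2-fold higher, with the list at 0.29 (0.13 to 0.44). A single SAR131675 cell held 112 of the 293 Krt81 UMIs of the members of all 4 libraries. In Krt35-led cells the list was at -0.0093 (-0.20 to 0.19), and at -0.58 (-0.85 to -0.31) without the top cell of each library. Of 11 shaft structural genes 2 were at least 2-fold higher, and the list was at -0.16 (-0.20 to -0.12), so that its sum and its count went opposite ways. Of 8 signalling genes 2 were at least 2-fold higher and the list was at 0.07 (-0.05 to 0.19).

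Of 57 Krtap genes 19 reached 100 UMIs, and 12 of these had 0 UMIs in control diet and so entered through SAR131675 alone. That 16 of the 19 were at least 2-fold higher therefore follows in large part from the filter and is not set against the share of all genes. The sum of all 57 was at 2.07 (1.93 to 2.21). Krtap8-1 was at 699.5 against 350.0 CPM and Krtap11-1 at 672 against 308 CPM, log2 ratios of 1.00 (0.76 to 1.25) and 1.12 (0.87 to 1.39). These genes are not independent of each other, since a few cells carried most of their UMIs. Krtap6-1 had 330 UMIs in 4 SAR131675 members and 0 in control diet, at least 32.1-fold higher against a floor of 3 UMIs over the control members, and Krtap26-1, at least 48.0-fold higher, had its 494 UMIs in 1 member. Within Krt35-led cells alone, 65 against 22, the Krtap list was at 1.48 (1.24 to 1.72) and at 1.33 (1.04 to 1.63) without the top cell of each library. With no upper limits on genes and UMIs the direction turned, to -0.76 (-0.79 to -0.74), as cells above the limits came in.

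Rule keratins in the diet libraries went in different directions. Krt35 was higher by 0.18 (0.12 to 0.23), and Krt36 lower by a log2 ratio of -0.87 (-1.06 to -0.68). Krt33b was at 1.24 (0.66 to 1.88) and at -0.071 (-1.26 to 1.28) without the top cell of each library, and Krt84 at 0.79 and at -0.89 without it. Krt32 and Krt82 were at 0.18 and -0.75, and at -1.43 and -2.04 without their top cells. In Krt35-led cells 30 of 2745 genes were at least 2-fold higher (1.09%) and 17 lower (0.619%). Lef1 there was at 0.035 (-0.11 to 0.18), Hoxc13 at 0.077 (-0.075 to 0.23), Jag1 at -0.044 (-0.29 to 0.21) and Krtap11-1 at 1.13 (0.80 to 1.47). Wnt3, a Wnt ligand, was at 124 against 26.1 CPM, a log2 ratio of 2.24 (1.28 to 3.40). It was at 2.61 (1.45 to 4.08) without the top cell of each library. Psors1c2 was at 1.55 (1.25 to 1.86), but 1 cell held 830 of its 999 SAR131675 UMIs and without the top cells the ratio was -0.094 (-0.55 to 0.39).

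Many of the genes with the largest ratios had most of their UMIs in 1 cell. The 10 highest included 7 late cornified envelope genes (Lce1d, Lce1c, Lce1l, Lce1m, Lce1a2, Lce1i and Lce1b) and Crct1, and 8 of the 10 had the same top member, a cell with 29657 UMIs of which 6 were of the rule keratins. Lce1d had 1329 UMIs in SAR131675 and 0 in control diet, at least 129-fold higher, with 99.8% of its UMIs in that cell. Granular layer genes stood at 6.19 (5.52 to 6.94), with 96.4% of their UMIs in 1 member. The 10 lowest were Apod, Fn1, Krt6a, Cst6, Krt17, Igfbp5, Defb6, S100a4, Gsn and Igfbp4, with at least 53.8% of their control diet UMIs in 1 member. For 5 of the 10 it was the same member, with 18740 UMIs of which 2 were of the rule keratins. That cell held 202 UMIs of Dcn, and another control diet member, with 3 rule keratin UMIs, held 153. Leaving out 1 cell keeps at least 1 of these. Without the top cells Fn1 was at -6.17 (-8.49 to -4.55), Gsn at -2.63 and S100a4 at -2.43, whereas Cst6 was at 0.42 (-0.034 to 0.89) and Krt17 at -0.22 (-0.84 to 0.44). The wound keratin list was at -3.77 with 91.8% of the control UMIs in 1 member, and the fibroblast list at -2.63 in all members but at 0.47 (-0.17 to 1.15) in Krt35-led cells. The 3 erythroid genes were at 4.19, with 73.5% of their UMIs in 1 SAR131675 member.

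For LNR against sham, more members were led by Krt36 and fewer by Krt35, a make-up that the rule's own keratins define. Krt36-led cells were 9 of 32 in LNR and 4 of 39 in sham, and Krt35-led cells were 15 and 23. Krt36 was at 4778 against 825 CPM, a log2 ratio of 2.53 (2.39 to 2.68), and 1.79 (1.61 to 1.97) without the top cell of each library. Krt84 was at 1.40 (1.22 to 1.59) and at 1.69 without the top cells, Spink12 at 2.26 (2.16 to 2.36) and at 0.93 (0.79 to 1.07). Within Krt35-led cells the nail-type list, Krt42 and Spink12, went the other way, at -0.66 (-1.01 to -0.32). Krt35 was lower, with a log2 ratio of -0.83 (-0.92 to -0.73) and -0.89 without the top cells. Krt33a, Krt83 and Krtap8-1 stood at 3.99, 2.67 and 2.04, but at 1.10, -1.48 and -1.16 without the top cells, so that leaving out 1 cell per library turned the direction of Krt83 and Krtap8-1. Krt82 in LNR was in 1 cell.

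Of 1291 genes with 100 UMIs in the LNR and sham members, 19 were at least 2-fold higher (1.47%) and 55 at least 2-fold lower (4.26%), or 5.73% either way, with a median log2 ratio of 0.011. Of 6 other hair and nail keratins 2 were at least 2-fold higher and the list was at 1.02 (0.90 to 1.14), but at 0.075 (-0.17 to 0.31) in Krt35-led cells, and there at -1.34 (-1.76 to -0.93) without the top cell of each library. Of 9 Krtap genes that reached 100 UMIs, 5 of them mainly through sham, 1 was at least 2-fold higher and 5 lower, with the median of the 9 genes at -3.16 and the sum of all 57 at 0.16 (0.086 to 0.24), so that count and sum went opposite ways. An LNR member held 87.2% of the Krtap UMIs and a sham member 61.0%, and the list was at -1.42 (-1.59 to -1.25) without them. Of 3 matrix factors 0 passed 2-fold, with the list at -0.13 (-0.29 to 0.029). Of 11 shaft structural genes 3 were at least 2-fold higher and 1 lower, with the list at -0.28 (-0.33 to -0.22). Of the 3 higher, Gprc5d went from 4.07 to 0.17 (-2.25 to 2.60) without the top cell of each library. Psors1c2, another of them, was at -0.61 (-1.09 to -0.15) in Krt35-led cells. Of 3 signalling genes 0 passed 2-fold.

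Fibroblast genes were lower in LNR than in sham members, at 113 against 2157 CPM, a log2 ratio of -4.26 (-4.66 to -3.88). The 4 of 6 genes that reached 100 UMIs did so through sham and were at least 2-fold lower in LNR. Col1a1 had UMIs in 4 LNR and 17 sham members. At least 2 markers of other cell types had a UMI in 10 of 32 LNR and 22 of 39 sham members. In Krt35-led cells, 15 against 23, the fibroblast list was at -3.43. By library it was there at 100.1 CPM in SAR131675, 72.5 in control diet, 124 in LNR and 1337 in sham, so that sham stood apart. In these cells 7 of 685 genes were at least 2-fold higher (1.02%) and 12 lower (1.75%). Krt35 was at -0.50 (-0.60 to -0.41), Gm49425 at -0.72 (-0.86 to -0.59), Krt31 at -2.02 (-2.37 to -1.68) and Lef1 at -0.50 (-1.05 to 0.03), while Hoxc13 was at -0.15 (-0.46 to 0.15).

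Among the genes with the largest ratios in LNR members, Lyg1, a lysozyme-like gene, was at 1650.5 against 18.7 CPM, a log2 ratio of 6.46, and at 4.34 (3.06 to 6.00) without the top cells. Ndufa4l2, a mitochondrial gene, was in 15 members of each library, at 313 against 69.7 CPM, a ratio of 2.17 (1.67 to 2.70) and of 2.28 (1.71 to 2.89) without the top cells. Fam204a was found in 23 LNR and 19 sham members and stood at 1.57 (1.06 to 2.10). Cnfn was at 1.45, and Saa1, Gprc5d, Krt83, Krtap8-1 and Wfdc18 had 96.2% to 98.4% of their LNR UMIs in 1 member. The lowest were Ecrg4, at least 92.9-fold lower with 97.8% of its sham UMIs in 1 member, 2310034C09Rik, Cytl1, Krtap13, Chad, Krtap3-3, Col1a1, Krt79, Col3a1 and Defb6. Cytl1 and Chad had 99.3% and 98.4% of their sham UMIs in 1 member. For 2310034C09Rik, Krtap13 and Krtap3-3 this share was 68.3% to 71.9%, and for the remaining genes 25.6% to 29.1%.

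**Figure D4:**
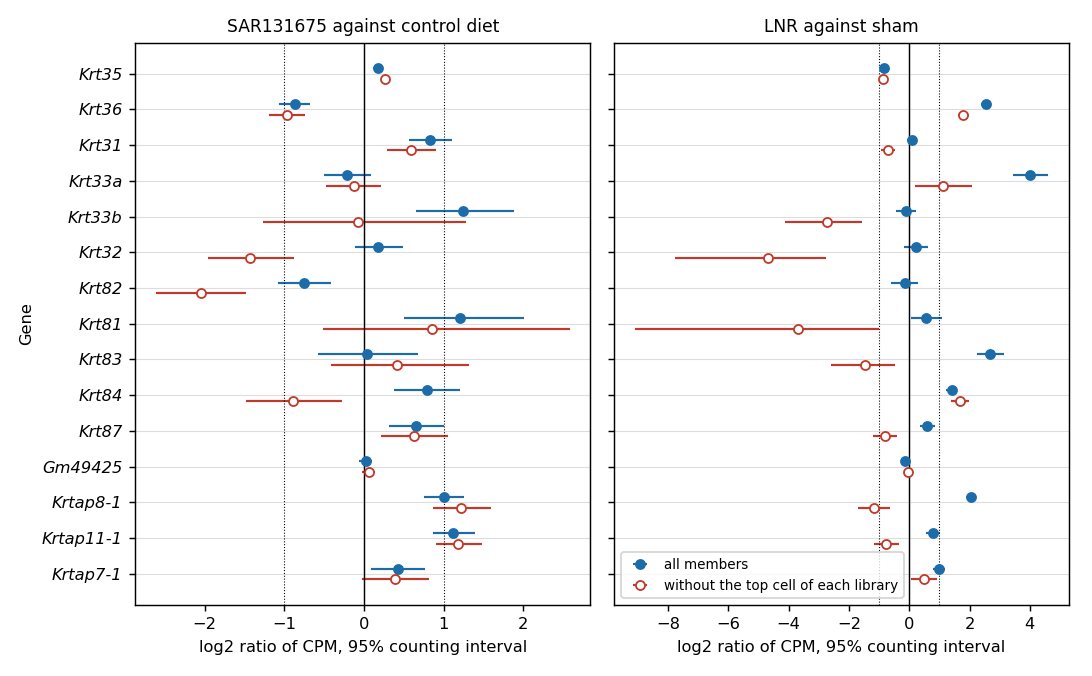
Log2 ratio of CPM in members, SAR131675 against control diet (left) and LNR against sham (right), with 95% counting intervals; filled points use all members and open points leave out the cell with most UMIs of the gene in each library. Dotted lines mark 2-fold; the axes differ. Krt35 stays on its side of 0 without the top cells and Gm49425 in LNR goes from -0.16 to -0.049, whereas Krt83 and Krtap8-1 in LNR change side when the top cells are left out, and Krt82 has no open point there because no LNR UMI remains.

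The share of kept cells that were members was 0.316% (0.255 to 0.388) in SAR131675 and 0.146% (0.101 to 0.203) in control diet, a log2 ratio of 1.12 (0.54 to 1.72). Leaving out members with UMIs of 2 or more markers of other cell types gave 0.50 (-0.20 to 1.23), as 44 of 92 members went in SAR131675 and 7 of 35 in control diet. With every kept cell thinned to 1500 UMIs, 29 SAR131675 and 12 control diet members remained, a ratio of 0.95 (-0.062 to 2.06), after 1252 and 1743 shallower cells were left out. In LNR and sham the shares were 0.161% (0.110 to 0.228) and 0.189% (0.134 to 0.258), a log2 ratio of -0.23 (-0.95 to 0.49), and thinning left 14 and 11 members, a ratio of 0.40 (-0.84 to 1.69), after 1359 and 1475 cells were left out.

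**Figure D5:**
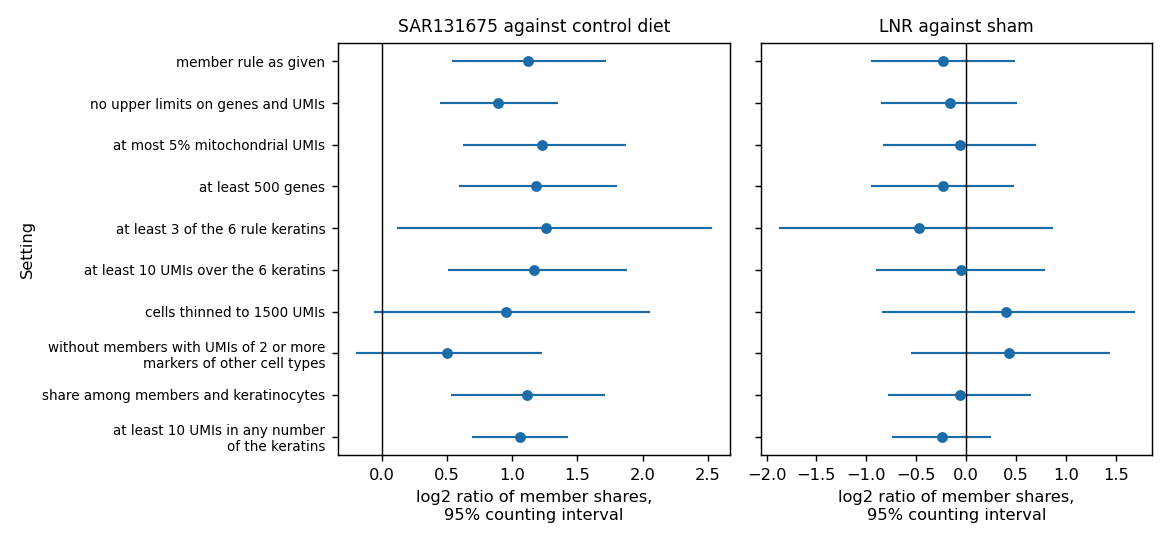
Log2 ratio of the share of kept cells that are members, SAR131675 against control diet (left) and LNR against sham (right), under the rule as given and under 9 other settings, with 95% counting intervals. In the diet experiment every point lies above 0, from 0.50 to 1.26, and 2 of the intervals reach below 0; in the surgery experiment every interval spans 0.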

How the data were processed

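The authors aligned the reads to GRCm39 and deposited, for each library, a matrix of UMI counts per gene and cell barcode. Per the labels Cell Ranger 6.1.2 was used, and the file headers give 6.1.2 for the LNR and sham libraries and 8.0.1 for the diet libraries. All 33696 features were read, and no value column was left unmapped. The filter on cells is the one that the methods state for the LNR experiment, applied here to both. The members and all gene lists were chosen with earlier results of these data known. Doublets were left in, with an alternative without members that hold UMIs of at least 2 markers of other cell types.

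Counts were summed over the members of a library. Genes were compared from 100 UMIs, and 2-fold was the limit for a count of genes. Intervals of a level are exact Poisson, of a share Clopper-Pearson, and of a ratio exact conditional binomial. Against other classes 0.5 UMI was added. Inner root sheath cells, cells with UMIs of both Krt42 and Spink12, and members were kept out of the other keratinocytes. Genes named were all listed hair and nail keratins, the 10 highest and 10 lowest of each pair outside the rule keratins, the 15 with the largest lowest ratio to other keratinocytes, the 3 with most UMIs of each list and the 5 Krtap genes with most UMIs. Other genes are named by list or by their rank in a leading-keratin group, and were picked with their values seen. The steps were tested on simulated data. Counts there were drawn gene by gene without cells, so the test does not cover genes with most of their UMIs in 1 cell. Python 3.11.15, numpy 2.4.6, scipy 1.17.1, pandas 2.3.3 and matplotlib 3.10.9 were used.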

Additional observations from a re-analysis of the deposited data

Results flagged for a closer look

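Cells that met the keratin rule but lay outside the limits on genes, UMIs or mitochondrial share belonged to no comparison. There were 57 such barcodes in SAR131675 with 24523 UMIs of the 6 rule keratins, 33 in control diet with 11763, 9 in LNR with 2039 and 14 in sham with 665. The upper limits on genes and UMIs kept out 51, 27, 4 and 3 of them. They held 40.3%, 32.1%, 13.9% and 7.25% of all UMIs of these keratins in the 4 libraries. Whether they are single cells was not tested.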

How the results depend on the processing

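Of 304 alternative values, 149 stayed within their spread or 1.5 times the count, 147 moved and 8 reversed, meaning that a value of at least 2-fold changed sign. Smaller values that changed sign count as moved. Values are log2 ratios unless called counts. Without members holding 2 or more markers of other cells, the share in SAR131675 against control diet was 0.50. The settings that follow are, in order, at least 10 rule keratin UMIs, thinning to 1500 UMIs, no upper limits, no members with other cells' markers, and the mean of per-cell CPM. Krtap genes in SAR131675 against control diet were then at 1.21, 2.60, -0.76, 1.49 and 1.53, and in LNR against sham at -0.086, -1.01, -1.47, -3.11 and -0.48. Other hair and nail keratins in LNR against sham were at 0.80, -0.23, 0.81, 0.22 and 0.56. In SAR131675 against control diet they were at -0.24 thinned, -0.25 with no upper limits and -1.10 as a per-cell mean. Leaving out the top member of each library, Krtap genes were at 2.33 (diet) and -1.42 (LNR), and other hair and nail keratins at 1.18 (LNR). In Krt35-led cells Krtap genes were at 1.48 and -1.03, and other hair and nail keratins at -0.0093 and 0.075. Without the top cells of these, Krtap genes were at 1.33 and -2.07, and other hair and nail keratins at -0.58 and -1.34. The settings by top member or top cell, by Krt35 and by 10 UMIs in any number of keratins were chosen after seeing the data.

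Further reversals were granular genes thinned, -0.27, wound keratins with no upper limits, 0.41, fibroblast genes in the diet pair, 0.44 with 10 UMIs, 0.24 without other cells' markers and 0.47 in Krt35-led cells, and nail-type genes in LNR, -0.66 in Krt35-led cells. Counts of genes past 2-fold with minima of 30 and 300 UMIs were 282 and 31 higher and 316 and 7 lower for the diet pair, and 65 and 9 higher and 236 and 16 lower for LNR. With 10 rule keratin UMIs they were 31 higher and 15 lower for the diet pair and 34 lower for LNR. In Krt35-led cells they were 30 higher and 17 lower, and 7 higher and 12 lower. Against other keratinocytes, thinning gave 35 higher and 1 lower, and leaving out members with other cells' markers 38 lower. Mean log2 ratios there were 10.29 for Krtap genes and 8.96 for other hair and nail keratins when thinned, against 7.08 and 7.23. The causes were not tested, other than that higher minima and fewer cells test fewer genes. No paired analysis was possible because each group has 1 library and the labels give no replicate numbers. The LNR and sham members, 32 and 39 against 92 and 35 in the diet pair, gave 1291 genes with 100 UMIs against 3578.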

Other observations

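Hard keratin filaments pair type I with type II chains, and the members had more UMIs of listed type I genes, 27899 against 3927 of type II, a ratio of 7.10. The rule chose members by 5 type I keratins and 1 type II keratin, which favours type I, and Krt35-led cells were sorted on a type I gene, so the ratios are a description. With the 10128 UMIs of Gm49425 counted as type II, because of its place in the type II cluster, the ratio was 1.98. In Krt35-led cells it went from 20.3 to 2.18. By library the ratio was 11.5 in SAR131675, 12.9 in control diet, 3.27 in LNR and 5.41 in sham, and 2.10, 2.00, 1.83 and 1.82 with Gm49425. The part of transcript length in these sums was not tested, and Krt85, a type II hard keratin, was not analysed here.

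Genes of chromosome 16 without a Krtap name but with Krtap genes among their nearest 8 neighbours in RefSeq were also found. 1110025L11Rik had 1105 UMIs over the members, 2310079G19Rik 1241, Gm10228 440, Gm10229 427, 2310034C09Rik 311 and 2310061N02Rik 144. 1110025L11Rik was at 240.0 CPM in SAR131675, 2.20 in control diet, 72.6 in LNR and 1177 in sham, with UMIs in 6, 1, 3 and 3 members.

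Members whose rule keratins were under 0.1% of their UMIs were 17 of 92, 5 of 35, 7 of 32 and 13 of 39. Their suprabasal list was at 25511, 14565, 22378 and 15725 CPM and their matrix factor list at 1509, 721, 495 and 659 CPM.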
